A study of Oryctolagus cuniculus with 6 samples.

Results

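The miR-34 and miR-449 microRNAs were followed in vesicles that cells had released into the seminal plasma of rabbit bucks. The family was taken by name, as the 5p strands of miR-34a, miR-34b, miR-34c, miR-449a, miR-449b and miR-449c and the 3p strands of miR-34b and miR-34c. Of these 8 strands, 7 were found among the 577 mature microRNAs of the small RNA sequencing table, and miR-449c-5p was not analysed here. The level filter used for testing was passed by 6 of the 7 strands and by 234 of all 577. The Sub-fertile group held 3 bucks of low semen quality and the Fertile group 3 bucks of high semen quality, selected from 14 males on 8 ejaculates each. All were California x New Zealand white crosses of 10 to 12 months of age, and no other treatment was described. Each library was 1 biological replicate from 2.5 mL of seminal plasma. The labels do not say whether a replicate was 1 male or a pool, and the groups rest on semen quality, not on a record of offspring.

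MicroRNAs are cut from a hairpin precursor as a pair of strands, 5p and 3p, of which one is usually kept in the silencing complex and the other mostly lost. A microRNA finds its target messenger RNAs chiefly through its seed, a short stretch near its 5′ end. The 5p strands of the miR-34 and miR-449 hairpins carry the same or a closely related seed, so the hairpins are treated as one family although they come from separate genes. In mouse, miR-34b, miR-34c and miR-449 are abundant in meiotic and later male germ cells and in multiciliated cells such as those of the efferent ducts, and the loss of both clusters together impairs cilia and sperm production. The miR-34a gene is expressed more widely. The miR-34 genes, miR-34a among them, are known targets of p53. In the RefSeq annotation of rabbit assembly mOryCun1.1, used here for gene order alone, the miR-34b and miR-34c genes were next to each other within the span of BTG4. The miR-449a and miR-449b genes were likewise neighbours, within the span of CDC20B, a gene of multiciliated cells. The miR-34a gene lay apart from both pairs.

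Library depth, as whole counts recovered from the deposited values, ran from 129387 to 636929 in Sub-fertile and from 453675 to 772619 in Fertile libraries. Values are given on the deposited scale of scaled CPM, counts corrected for library depth. A count weighed 6.24 units in the shallowest library, Sub-fertile replicate 1, and 1.33 units in the deepest, Fertile replicate 1. Sub-fertile replicate 1 stood apart from the other 5 libraries for most of the family. Results that rest on it are given with and without it. In vesicles from a whole fluid, fewer vesicles of a cell type cannot be told apart from less of a microRNA in each vesicle. The sources used here do not state how reads matching several members of this family were assigned.

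The leading strand was miR-34c-5p, the 5p product of the miR-34b/c gene pair. It stood at 11502, 1842 and 964 scaled CPM in Sub-fertile replicates 1, 2 and 3, against 889, 1131 and 772 in Fertile replicates 1, 2 and 3. The first of these values was 10.3 times the mean of the other 5 libraries and placed miR-34c-5p at rank 18 of all microRNAs in that library, against ranks 43 to 72 in the others. The groups overlapped, because Sub-fertile replicate 3 lay below Fertile replicate 2.

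The 5p strand of miR-449a, from the CDC20B locus, followed the same order of libraries within the Sub-fertile group. It reached 3909, 1050 and 618 scaled CPM in Sub-fertile replicates 1, 2 and 3, against 521, 570 and 438 in Fertile replicates 1, 2 and 3. It was the only tested member whose groups did not overlap. Over all tested microRNAs, 9.40% had every Sub-fertile library above every Fertile one, so a case of this kind is not rare in this table.

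A much lower level was found for miR-34b-5p, the minor strand of its hairpin. It had 356, 73.5 and 29.6 scaled CPM in Sub-fertile replicates 1, 2 and 3, against 37.3, 27.2 and 9.27 in Fertile replicates 1, 2 and 3. These values rest on 57, 18 and 17 counts in the Sub-fertile and 28, 14 and 4 counts in the Fertile libraries. Sub-fertile replicates 1 and 2 were above every Fertile library, whereas Sub-fertile replicate 3 was within the Fertile range.

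The miR-34a-5p strand did not share the high level of Sub-fertile replicate 1. Its levels were 687, 1258 and 679 scaled CPM in Sub-fertile replicates 1, 2 and 3, against 714, 545 and 658 in Fertile replicates 1, 2 and 3. The highest value was in Sub-fertile replicate 2, and the other 5 libraries lay between 545 and 714.

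The 3p strands had a different order. For miR-34b-3p, the major strand of its hairpin, 924, 233 and 146 scaled CPM were measured in Sub-fertile replicates 1, 2 and 3, against 632, 621 and 475 in Fertile replicates 1, 2 and 3. Sub-fertile replicate 1 was the highest library of all 6 and the other Sub-fertile libraries were the lowest. For miR-34c-3p, the minor strand, the values were 350, 106 and 33.1 in Sub-fertile replicates 1, 2 and 3, against 109, 93.4 and 55.6 in Fertile replicates 1, 2 and 3. Here too Sub-fertile replicate 1 was the highest, and Sub-fertile replicate 3 was the lowest. The miR-449b-5p strand had 0 counts in all 3 Sub-fertile libraries and in Fertile replicates 1 and 2, and 1 count in Fertile replicate 3. A count of 0 allows up to 3 counts, which is 18.7 units in the shallowest library (counting error only).

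**Figure D1:**
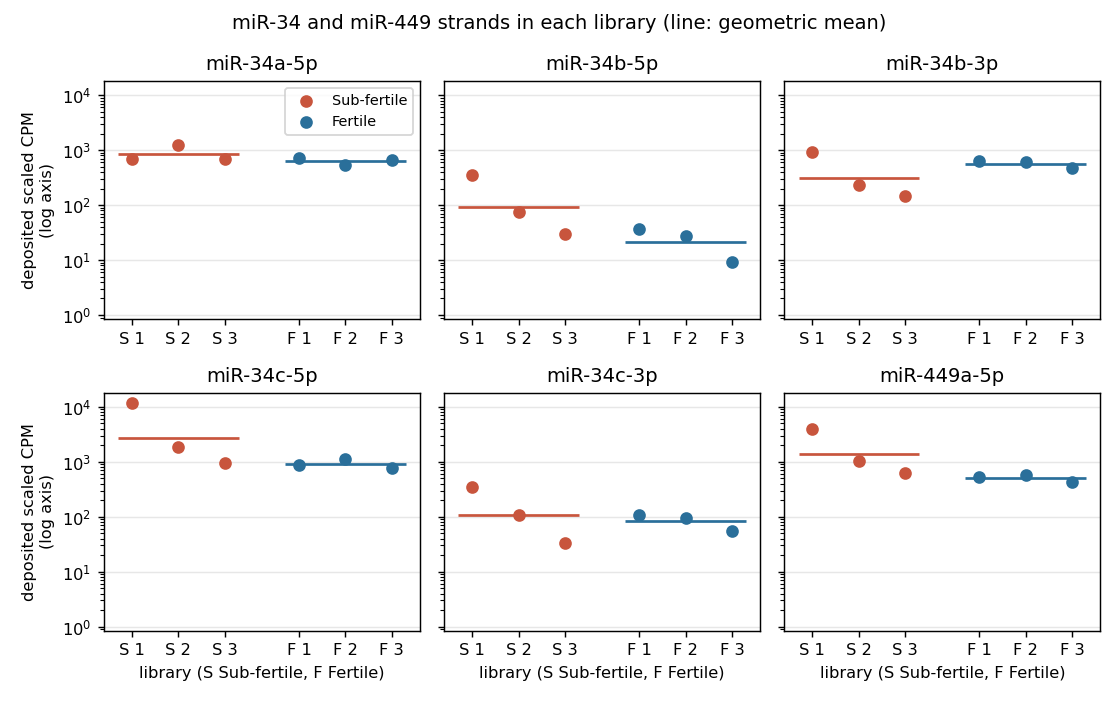
Level of each of the 6 tested strands (deposited scaled CPM, log axis) in the 3 Sub-fertile (S) and 3 Fertile (F) libraries, with 1 point per library and a line at the geometric mean of the group. Sub-fertile replicate 1 is the highest library for every strand except miR-34a-5p, and for miR-34b-3p the other Sub-fertile libraries, at 233 and 146, lie below the lowest Fertile value of 475.

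In Fertile vesicles the order of the means was miR-34c-5p at 931 ± 183, miR-34a-5p at 639 ± 86, miR-34b-3p at 576 ± 88, miR-449a-5p at 510 ± 67, miR-34c-3p at 86.1 ± 27.6 and miR-34b-5p at 24.6 ± 14.2 scaled CPM (SD, n = 3). The ranges of the neighbours miR-34a-5p and miR-34b-3p overlapped, as did those of miR-34b-3p and miR-449a-5p. The ranges of miR-34c-5p and miR-34a-5p did not, nor did those of miR-449a-5p, miR-34c-3p and miR-34b-5p. In Sub-fertile vesicles the order was miR-34c-5p at 4769 ± 5847, miR-449a-5p at 1859 ± 1789, miR-34a-5p at 875 ± 332, miR-34b-3p at 434 ± 426, miR-34c-3p at 163 ± 166 and miR-34b-5p at 153 ± 177 (SD, n = 3), and the ranges of all neighbours overlapped. Strands of different sequence may be captured with different efficiency in a library, so this order is one of sequenced molecules.

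Summed over the 5p strands, the family held 16454, 4223 and 2290 scaled CPM in Sub-fertile replicates 1, 2 and 3, against 2162, 2273 and 1879 in Fertile replicates 1, 2 and 3. As a share of all counts this was 2.04%, 0.427% and 0.207% in the Sub-fertile and 0.210%, 0.218% and 0.179% in the Fertile libraries. On the deposited scale the groups were just apart, at 2290 against 2273, as for 9.40% of single tested microRNAs in this direction. As a share of the library they overlapped. With the 3p strands added the groups overlapped on the deposited scale too (lowest Sub-fertile 2469, highest Fertile 2988). Sub-fertile replicate 1 carried 6.41 times the mean sum of the other 5 libraries, and Sub-fertile replicate 2 lay above the remaining 4. The summed levels are a description, and no test was made on them.

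Within this sum the share of miR-449a-5p varied little, at 23.8%, 24.9% and 27.0% in Sub-fertile replicates 1, 2 and 3, against 24.1%, 25.1% and 23.3% in Fertile replicates 1, 2 and 3. In Sub-fertile replicates 1 and 2 miR-34c-5p and miR-449a-5p, from separate loci, were both above every Fertile library. Sub-fertile replicate 1 differed in the other members. There miR-34c-5p made up 69.9% of the sum, against 41.1% to 49.7% elsewhere. The share of miR-34a-5p was 4.17% there, against 24.0% to 35.0% elsewhere.

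**Figure D2:**
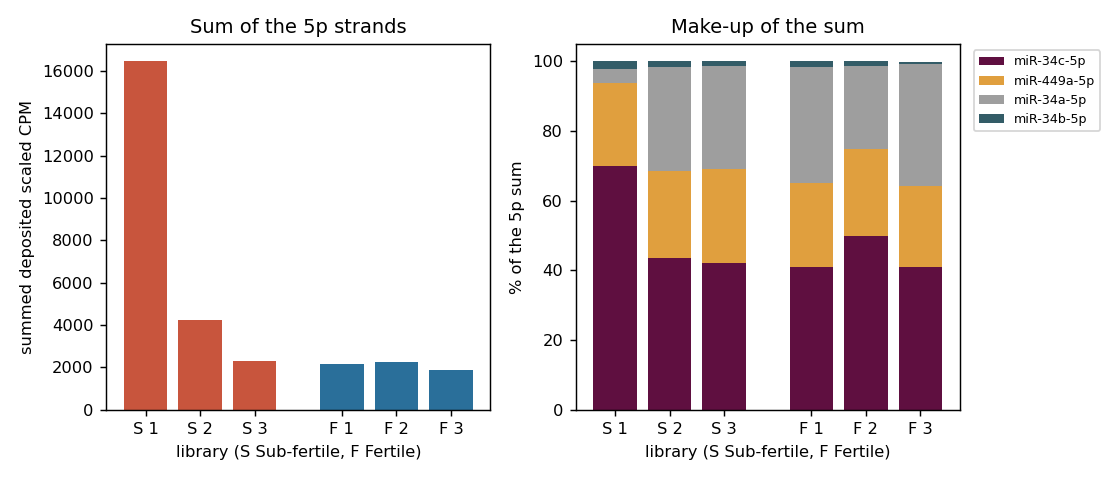
Left, summed deposited scaled CPM of the miR-34 and miR-449 5p strands in each Sub-fertile (S) and Fertile (F) library; right, the percentage of that sum taken by each strand (miR-449b-5p, 0.123% in Fertile replicate 3 and 0 elsewhere, is not drawn). The sum is 16454 in Sub-fertile replicate 1 and 1879 to 4223 in the other 5 libraries, while the miR-449a-5p share stays between 23.3% and 27.0%.

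Of ratios between members, 3 were compared between the groups, each on the log2 scale within a library. The log2 ratio of miR-34c-5p to miR-34b-5p, strands of neighbouring genes, averaged 4.87 ± 0.21 in Sub-fertile and 5.37 ± 0.85 in Fertile vesicles (SD, n = 3 each), with a two-sided exact permutation p of 0.5 and an adjusted p of 0.75. For miR-449a-5p to miR-34c-5p the means were -1.003 ± 0.487 in Sub-fertile and -0.86 ± 0.11 in Fertile vesicles (exact permutation p = 0.9, adjusted p = 0.9). For miR-34a-5p to miR-34c-5p they were -1.71 ± 2.04 in Sub-fertile and -0.53 ± 0.45 in Fertile vesicles (exact permutation p = 0.5, adjusted p = 0.75). With 3 libraries against 3 this test cannot go below 0.1. Without Sub-fertile replicate 1 the Sub-fertile minus Fertile difference of the last of these ratios was 0.0042, against -1.17 with it, and that of miR-449a-5p to miR-34c-5p was 0.13, against -0.15 with it.

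In the test over all 234 microRNAs, 0 of the 6 tested members had a limma adjusted p below 0.05 (Benjamini-Hochberg), where 3.42% of all tested microRNAs passed. At an unadjusted p under 0.05 there were 2 members, miR-449a-5p and miR-34b-5p, and 45 of all 234 microRNAs (19.2%). The edgeR quasi-likelihood test on the recovered counts likewise passed 0 members, and DESeq2 passed 2, again miR-449a-5p and miR-34b-5p, where it passed 7.26% of all microRNAs. With libraries weighted by their scatter (limma array weights), 4 members passed, miR-34a-5p, miR-34c-5p and miR-449a-5p as higher and miR-34b-3p as lower, where 19.2% of all microRNAs passed. The fold change of miR-449a-5p, Sub-fertile over Fertile, was 2.69 (95% interval 1.07 to 6.76, limma adjusted p = 0.23). That of miR-34b-5p was 4.18 (1.01 to 17.4, adjusted p = 0.26) and that of miR-34c-5p 2.97 (0.879 to 10.1, adjusted p = 0.31). For miR-34a-5p it was 1.32 (0.839 to 2.07, adjusted p = 0.51). Among the 3p strands it was 0.554 (0.216 to 1.42, adjusted p = 0.51) for miR-34b-3p and 1.29 (0.389 to 4.31, adjusted p = 0.85) for miR-34c-3p. These folds come from log2(value + 1), which understates changes of low strands. The median log2 change was 0.91 over the 6 tested members and 1.50 over the 4 tested 5p strands, against -0.10 over all tested microRNAs. The Sub-fertile libraries differed widely among themselves, with a coefficient of variation of 123% for miR-34c-5p, against 19.7% in Fertile libraries.

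With Sub-fertile replicate 1 left out, 2 Sub-fertile libraries stood against 3 Fertile ones, and 1 member passed and its direction was down. This was miR-34b-3p, whose Fertile level was 3.08 times its Sub-fertile level (log2 change -1.63, SE 0.26, limma adjusted p = 0.00026). Without that library its Sub-fertile levels did not overlap the Fertile ones, as for 26.1% of microRNAs in this direction. Its adjusted p ran from 0.00026 to 0.88 over the alternatives tried. In that comparison 12.3% of the 227 microRNAs tested passed as lower, so this call is one of many gained by leaving out the library. The 5p strands had a positive change, of 1.59-fold for miR-449a-5p (adjusted p = 0.070), 1.45-fold for miR-34a-5p (0.15), 1.45-fold for miR-34c-5p (0.15) and 2.14-fold for miR-34b-5p (0.26), none of which passed. The sign of miR-34c-3p turned, with a log2 change of -0.47 without this library, against 0.37 with it. The median log2 change of the 6 members was then 0.54, against -0.03 over all 227.

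**Figure D3:**
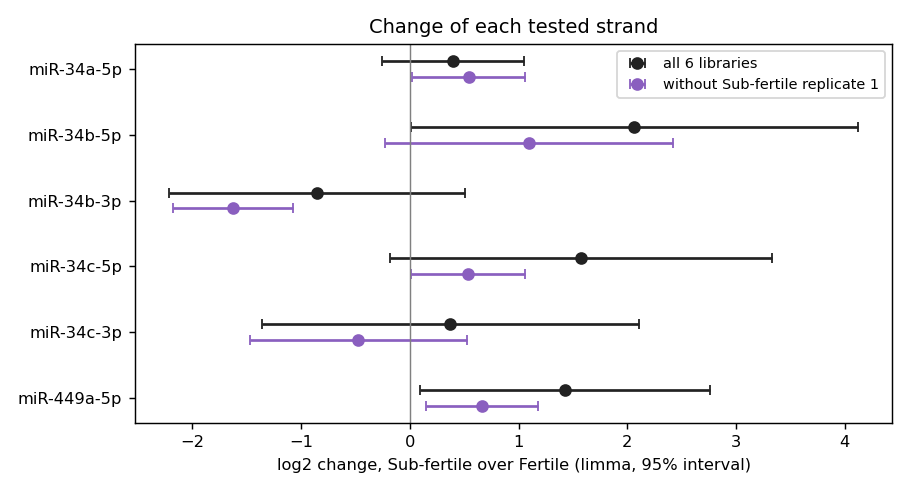
Log2 change (Sub-fertile over Fertile, limma) of each tested strand with its 95% interval, with all 6 libraries (black) and without Sub-fertile replicate 1 (purple). Without that library miR-34b-3p stands at -1.63 with an interval below 0, and the changes of miR-34c-5p and miR-449a-5p are 0.54 and 0.67.

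The balance of the strands within a hairpin was then compared, since both strands come from one precursor and their ratio in a library does not depend on scaling. The miR-34b hairpin was mainly represented by its 3p strand and the miR-34c hairpin by its 5p strand, in every library. For miR-34b, the 5p strand made up 27.8% of the hairpin's counts in Sub-fertile replicate 1 (exact binomial 95% interval 21.8 to 34.5), 24.0% in replicate 2 (14.9 to 35.3) and 16.8% in replicate 3 (10.1 to 25.6). In Fertile replicates 1, 2 and 3 it made up 5.58% (3.74 to 7.96), 4.20% (2.32 to 6.95) and 1.91% (0.524 to 4.83). Every Sub-fertile library was above every Fertile one, as for 14.0% of the 57 hairpins with both strands tested, and none of the Sub-fertile intervals overlapped a Fertile one. The intervals cover counting error only.

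Fitted over these 57 hairpins, the log2 ratio of 5p to 3p of miR-34b rose by 2.92 (SE 0.55), or 7.55-fold (95% interval 3.12 to 18.3; limma adjusted p = 0.015). It was the largest of all 57 changes in this direction, and the only hairpin that passed as higher (1.75% of those tested, where 5.26% passed in either direction). The pass was lost without Fertile replicate 1 (change 3.23, limma adjusted p = 0.072) and without Fertile replicate 3 (2.49, adjusted p = 0.095). With the replicate number as a block in the limma fit it was lost as well (2.92, adjusted p = 0.079). Without Sub-fertile replicate 1 it held (2.72, adjusted p = 0.0016), in a fit where 15.8% of hairpins passed as higher. Over all alternatives tried the change ran from 2.49 to 3.23 and the adjusted p from 0.0016 to 0.095. In Sub-fertile replicate 2 miR-34b-3p was below and miR-34b-5p above its Fertile range, in replicate 3 miR-34b-3p was below its Fertile range and miR-34b-5p within it, and in replicate 1 both strands were above their Fertile ranges. In Fertile replicate 3 the 5p strand rested on 4 counts, so the size of the change is imprecise. Across the libraries miR-34b-5p had 4 to 57 counts, beside 333 to 1842 of miR-34c-5p. How reads matching several members of this family were assigned is not stated in the sources used here. The part of read assignment in this ratio was not tested.

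The neighbouring miR-34c hairpin leaned the same way. Its 5p strand made up 97.0%, 94.5% and 96.7% of the hairpin's counts in Sub-fertile replicates 1, 2 and 3, against 89.1%, 92.4% and 93.3% in Fertile replicates 1, 2 and 3. In ratios, there were 32.9, 17.3 and 29.2 copies of the 5p strand per 3p strand in the Sub-fertile libraries, against 8.13, 12.1 and 13.9 in the Fertile ones. The groups did not overlap here either. The change of 1.20 on the log2 scale (SE 0.40), or 2.30-fold (95% interval 1.22 to 4.33), did not pass (limma adjusted p = 0.11), and it kept its sign in every alternative (0.98 to 1.47, adjusted p 0.072 to 0.25). Over all 57 hairpins the median change was 0.10. The opposite strands of miR-34a and miR-449a had 1 count each over all 6 libraries and that of miR-449b had 0, so no ratio was formed for these hairpins.

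**Figure D4:**
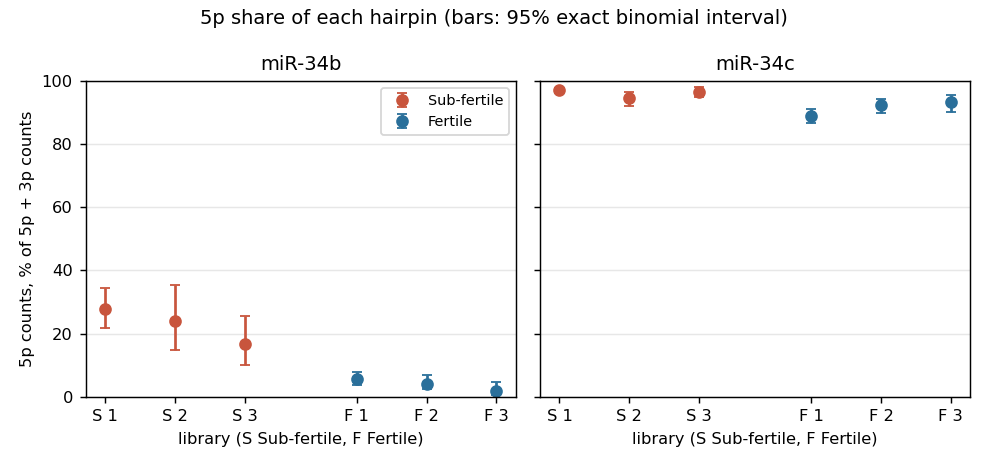
Share of the 5p strand among the 5p and 3p counts of the miR-34b (left) and miR-34c (right) hairpins in each Sub-fertile (S) and Fertile (F) library, with exact binomial 95% intervals. The 3 Sub-fertile libraries lie above the 3 Fertile ones for both hairpins, at 16.8% to 27.8% against 1.91% to 5.58% for miR-34b.

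How far Sub-fertile replicate 1 stood from the rest was measured for each of the 234 tested microRNAs as its log2 level minus the mean of the other 5 libraries. The median of this excess was -0.14, and 43 microRNAs exceeded 1. The family took ranks 2, 3, 7 and 9 with miR-34b-5p (3.56), miR-34c-5p (3.43), miR-449a-5p (2.68) and miR-34c-3p (2.25). The others were miR-34b-3p at rank 30 (1.34) and miR-34a-5p at rank 114 (-0.10). Among the 6 highest, the microRNAs outside the family were miR-143-3p (3.76, on 9 counts in this library), miR-371-3p (3.39), miR-21-3p (2.86, on 11 counts) and miR-378-5p (2.82). Of all these, miR-34c-5p rested on the most counts, 1842. Sub-fertile replicate 1 was also the shallowest library and Sub-fertile replicate 2 the next, at 129387 and 242078 counts, and these were the libraries with the most miR-34c-5p and miR-449a-5p. The part of depth in this was not tested.

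**Figure D5:**
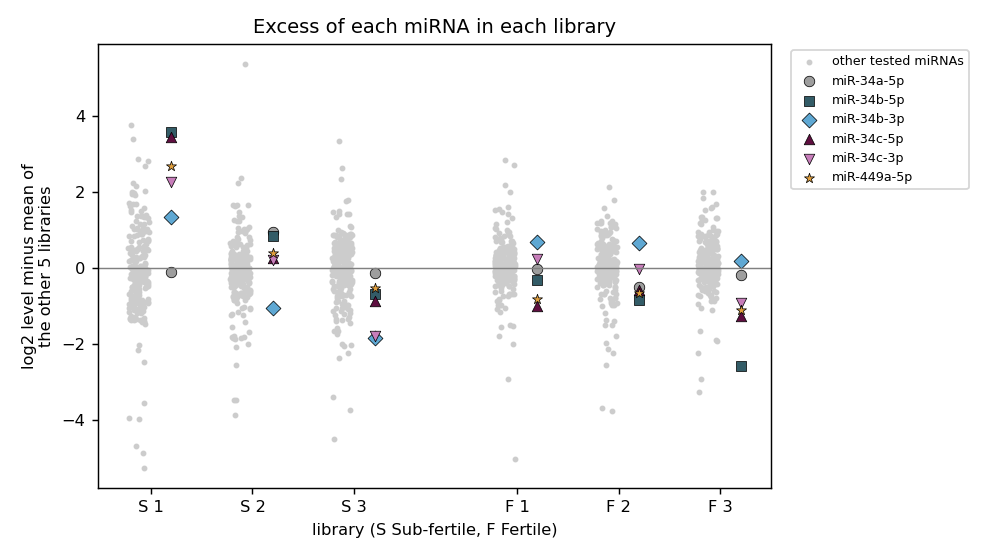
Log2 level of each tested microRNA in a library minus its mean in the other 5 libraries (grey, other microRNAs; coloured symbols, miR-34 and miR-449 strands), for the 3 Sub-fertile (S) and 3 Fertile (F) libraries. In Sub-fertile replicate 1, miR-34b-5p and miR-34c-5p lie at 3.56 and 3.43 near the top of all 234, and miR-34a-5p lies at -0.10.

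Other microRNAs tied to the male tract and to its other cells were read beside the family. The X-linked miR-506 to miR-514 strands, a cluster enriched in testis, did not share the high level of Sub-fertile replicate 1. Of 14 strands with values, 11 were tested, and all 11 were lower in that library than their mean in the other 5 libraries. In the group test 0 of them passed in either direction, as in the family, where 3.42% of all tested microRNAs passed. Their sum was 22212, 32174 and 49378 scaled CPM in Sub-fertile replicates 1, 2 and 3, against 41852, 35448 and 40558 in Fertile replicates 1, 2 and 3. Within the Sub-fertile group this order was the reverse of that of miR-34c-5p. The most abundant strand of the cluster, miR-509b-3p, stood at 7949, 11196 and 18035 in Sub-fertile replicates 1, 2 and 3, against 16295, 13140 and 16370 in Fertile replicates 1, 2 and 3. The median log2 change of the 11 was -0.30, and 0.02 without Sub-fertile replicate 1.

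The epithelial list (miR-200c, miR-141, the miR-183 cluster, miR-205 and miR-375) summed to 98494 to 154511 in Sub-fertile and 117924 to 124676 in Fertile libraries, with Sub-fertile replicate 1 the lowest. Most of this sum was miR-200c-3p and miR-141-3p, with means of 46215 and 44215. The list as planned also held miR-200a, miR-200b, miR-429 and miR-203, which had no strand to analyse here. Of its 14 strands with an entry, 3 were at 0 in all libraries. In Sub-fertile replicate 1, 7 of the 9 tested strands were below their mean in the other 5 libraries. The exceptions were miR-375-3p and miR-96-5p, at 1.22 and 1.37 times that mean. Of the 9 tested strands of this list 0 passed, where 3.42% of all tested microRNAs did. Without Sub-fertile replicate 1, 2 passed as lower, where 12.3% of all tested microRNAs did so. The leukocyte list summed to 767 to 1118 in Sub-fertile and 312 to 695 in Fertile libraries, and Sub-fertile replicate 1 was the highest. These groups did not overlap, as for 9.40% of single tested microRNAs in this direction. The separation rested on miR-146a-5p, and without it the sums were 324 to 699 in Sub-fertile and 253 to 595 in Fertile libraries, which overlapped. Of its 6 tested strands 1 passed as higher, miR-146a-5p, where 3.42% of all tested microRNAs passed in either direction. At 0 in all libraries were 3 of its 10 strands. The muscle list summed to 181 to 268 in Sub-fertile and 11.6 to 60.0 in Fertile libraries. Of its 2 tested strands 1 passed as higher, miR-206-3p, whereas miR-133a, miR-133b, miR-208a and miR-208b were at 0 throughout. The other tested strand, miR-1-3p, did not pass. It was at 6.24, 16.3 and 15.7 in Sub-fertile replicates 1, 2 and 3, against 50.7, 1.95 and 2.32 in Fertile replicates 1, 2 and 3. The higher sum thus rested on miR-206-3p. The erythroid list stayed at 6.24 to 20.4 in Sub-fertile and 12.0 to 37.1 in Fertile libraries, with miR-144 at 0 and 0 of 1 tested strands passing. The part of these cell types in the levels of the family was not tested.

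Of microRNAs induced by p53 other than miR-34, 3 of 10 strands were tested and 0 passed, where 3.42% of all tested microRNAs did. Another 4 of the 10 were at 0 in all libraries, namely both strands of miR-145, miR-143-5p and miR-194-3p. Their sum was 137, 229 and 172 in Sub-fertile replicates 1, 2 and 3, against 145, 103 and 123 in Fertile replicates 1, 2 and 3. Sub-fertile replicate 2, the highest library for miR-34a-5p, was the highest here too. In that library miR-194-5p stood at 106, against 25.0 to 48.7 in the other 5 libraries, and the peak of the sum rested mainly on it. Of the other tested strands, miR-107-3p was at 110 there and at 108 in Sub-fertile replicate 3. The highest library of miR-143-3p was Sub-fertile replicate 1, at 56.2, against 12.3 in Sub-fertile replicate 2.

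The microRNAs whose levels ran most like the summed 5p strands were picked by Pearson's r of log2 levels over the 6 libraries, as a description. They were miR-196a-5p (r = 0.993), miR-15b-5p (0.978), miR-9851-3p (0.968), miR-204-5p (0.945), miR-15b-3p (0.945) and miR-196a-2-5p (0.942). Sub-fertile replicate 1 weighs heavily in these values. Over the other 5 libraries r was 0.936 for miR-196a-5p, 0.785 for miR-15b-5p, 0.679 for miR-9851-3p, 0.884 for miR-204-5p, 0.395 for miR-15b-3p and 0.782 for miR-196a-2-5p. The closest, miR-196a-5p, a microRNA encoded in the HOX clusters, had 2741, 1332 and 976 scaled CPM in Sub-fertile replicates 1, 2 and 3, against 992, 1104 and 978 in Fertile replicates 1, 2 and 3. Its span was thus much narrower than that of miR-34c-5p, and its change did not pass (log2 change 0.58, SE 0.35, limma adjusted p = 0.43).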

How the data were processed

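Per the labels' protocols, small RNA from 3 Sub-fertile and 3 Fertile replicates was turned into libraries with the QIAseq miRNA kit. The submitters' processing notes name bcl2fastq, Bowtie2 2.2.2, DESeq2 and the build OryCun2.0, with no role or order. The deposited signal, 1 value per microRNA and library, is called CPM by the authors, but column totals were 807952 to 1108265. Whole counts were recovered for 100% of values (tolerance 1e-09), and the implied scaling equals edgeR's TMM factors. The sources used here do not state whether reads or unique molecules were counted.

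Deposited values were used as they are. Tested microRNAs had 10 or more in at least 3 of 6 libraries. In R 4.3.3, limma 3.58.1 was fitted with a mean-variance trend to log2(value + 1), over all tested microRNAs with Benjamini-Hochberg adjustment. For strand ratios the trend was taken on the mean level of both strands. Ratios between members used a two-sided exact permutation test. Alternatives included edgeR 4.0.16 and DESeq2 1.42.0 on the recovered counts. The scripts were tested on simulated data in which all libraries shared the same spread, unlike the data here, so this checks the code only. Lowest chi-square per degree of freedom between libraries of 1 group was 20.3, so none was a copy. P-values measure the spread between these libraries.

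The members, lists and tests were chosen with earlier results of these data known. Named were every member, the 6 microRNAs most like the summed 5p strands, the 6 with the largest excess in Sub-fertile replicate 1, and up to 4 of each comparison list. MicroRNAs at 0 in all libraries, or with no strand to analyse here, were named beyond these 4. The lists were testis and germ cell, epididymis (the miR-888 cluster, with 0 strands to analyse here), epithelium, p53-induced, leukocyte, erythroid and muscle. Values of miR-194-5p were chosen after they were seen.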

Additional observations from a re-analysis of the deposited data

How the results depend on the processing

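Of the members tested, 0 passed under 2 other pseudocounts, 3 other filters, 3 other scalings, limma without a trend, the replicate block and edgeR. These were 6 members, except 5 with a filter at 100, where miR-34b-5p was left out, and 7 with no filter, where miR-449b-5p was added. With array weights 4 passed, miR-34a-5p, miR-34c-5p and miR-449a-5p up and miR-34b-3p down, where 19.2% of all microRNAs passed, and that fit gave Sub-fertile replicate 1 a weight of 0.188. DESeq2 passed 2. Leaving out 1 library gave 0 to 1, and the sign of miR-34c-3p turned without Sub-fertile replicate 1 (-0.47 to 1.21 over left-out libraries). Over all tested microRNAs, 8 passed, against 14 with a filter at 100, 5 with quantile normalization, 1 without a trend, 45 with array weights, 17 with DESeq2, 0 with the replicate block and 3 to 41 with 1 library left out. The median log2 change of all microRNAs was 0.02 with plain CPM and 0.06 with DESeq2, against -0.10.

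Of the miR-34b and miR-34c hairpins 1 passed, against 0 with the replicate block (miR-34b adjusted p = 0.079) and 0 to 1 with 1 library left out. Of all hairpins 3 passed, against 5 with a pseudocount of 5, 1 without a trend, 0 with the replicate block, 0 to 12 with 1 library left out, and 4 with the trend on the mean ratio, a setting chosen after seeing the data. Deviations of libraries with the same number correlated at 0.045, -0.12 and 0.10, and 2 of 6 libraries matched their own number best. No pairing by number was seen, although with 3 libraries per group this cannot show that there is none. Left-out libraries moved the log2 difference of miR-34c-5p to miR-34b-5p between -0.91 and -0.058, that of miR-449a-5p to miR-34c-5p between -0.33 and 0.13 and that of miR-34a-5p to miR-34c-5p between -1.77 and 0.0042. The Sub-fertile minus Fertile difference in the 5p sum was 5551, 6879 with plain CPM, 5955 with median-of-ratios scaling and 1152 to 8234 with 1 library left out. The cause of these differences was not tested. At these depths miR-449b-5p, with 0 to 1 counts per library, could not be compared, and miR-34b-5p rested on 4 to 57.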

Other observations

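The major strands of the neighbouring miR-34b and miR-34c hairpins are of opposite arms, and their 3p strands can be set beside each other within a library. The ratio of miR-34b-3p to miR-34c-3p was 2.64, 2.19 and 4.42 in Sub-fertile replicates 1, 2 and 3, against 5.78, 6.65 and 8.54 in Fertile replicates 1, 2 and 3. The groups did not overlap, in a ratio that was chosen after its values were seen and was not tested. How often ratios of other strand pairs do not overlap was not counted, so no share can be set beside this one. The ratio of miR-34c-5p to miR-34b-5p, by contrast, was 32.3, 25.1 and 32.6 in Sub-fertile replicates 1, 2 and 3, against 23.8, 41.5 and 83.2 in Fertile replicates 1, 2 and 3, where the groups overlapped.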
